A study of Mus musculus with 10 samples.

Results

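A set of 9 genes of the follicular helper T-cell (Tfh) programme were followed across sorted splenic CD4+ T cells of mice with and without SATB1. The 9 genes, of 48321 symbols counted, were Bcl6, Il21, Cxcr5, Ascl2, Tox2, Sostdc1, Angptl2, Sh2d1a and Pou2af1, taken by symbol. Some of the 9 were chosen by their counts, which differed between FoxP3+CD25- cells of KO mice and WT FoxP3-CD25- cells, so that contrast is given as a description. All 9 had counts and passed the filter on low counts, as did 13796 genes in all. The mice were C57BL/6 with a GFP reporter of Foxp3, and were either WT or Satb1 F/F:Thpok-cre (KO), in which a Cre driven by Thpok deletes the floxed Satb1 gene once thymocytes commit to the CD4 lineage. Neither age nor sex is given in the labels. GFP (taken as FoxP3) and CD25 defined the sort gates, CD25 being the alpha chain of the IL-2 receptor. There were 10 libraries in 5 groups of 2: WT and KO FoxP3+CD25+ cells (Tregs), WT and KO FoxP3-CD25- cells (non-Tregs), and KO FoxP3+CD25- cells. No WT FoxP3+CD25- library was analysed here. Library numbers 1 and 2 within a genotype were taken to be mice, as the titles imply without stating it.

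Tfh cells are CD4+ T cells that enter B-cell follicles and help B cells form germinal centres. The repressor BCL6 is required for them, and the chemokine receptor CXCR5 draws them to follicles, where they secrete IL-21 and use the adaptor SAP, the product of Sh2d1a, for lasting contact with B cells. ASCL2 and TOX2 are transcription factors that favour the programme. Follicular regulatory T cells are Tregs that share CXCR5 and BCL6 with Tfh cells. IL-2 signalling through CD25 and STAT5 opposes BCL6. The spleen sorts here used neither CXCR5 nor PD-1, so Tfh cells were not isolated and each library is a mixture. In such bulk RNA, fewer cells of a type and less RNA per cell cannot be told apart.

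Library depth ran from 6094952 to 12410064 reads on genes, and the floor of 3 counts corresponded to 0.248 to 0.496 CPM, the TMM-scaled counts of a library. Floors and counting intervals cover counting error only. The gate was reflected in Foxp3, which had 618 to 739 CPM in the 4 Treg libraries, 318 to 361 CPM in KO FoxP3+CD25- cells and 18.0 to 38.9 CPM in the 4 non-Treg libraries. Satb1, counted over the whole gene, had 379 to 478 CPM in WT Tregs against 534 to 598 CPM in KO Tregs, and 818 to 881 CPM in WT non-Tregs against 682 to 841 CPM in KO non-Tregs. A count over the whole gene does not show the loss of floxed exons, so it does not check the genotype, and WT and KO are used as the labels give them. Both libraries of WT replicate 1 stood apart by sex-linked genes: Xist had 14487 and 16362 counts there and at most 4 in each of the other 8 libraries, whose counts on 4 Y-linked genes were 3039 to 4750 against 0. Cd3e was present in all libraries at 464 to 673 CPM. The B-cell gene Ms4a1 was near 0, with at most 0.763 CPM, and Cd8a and Lyz2 reached at most 4.14 and 1.53 CPM.

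Promoter sequences were found in the RefSeq table (GRCm38.p6) for 6 of the 9 genes. Cxcr5, Sostdc1 and Sh2d1a had no entry. Of the windows found, 5 of 250 bases ending just before a RefSeq transcription start are given 5′ to 3′ on the strand of the gene, those of Il21, Ascl2 and Pou2af1 because these genes shared a layout over the sorts, and those of Angptl2 and Bcl6 for their matches to a motif, with E-boxes (CANNTG, the letters that basic helix-loop-helix proteins such as ASCL2 bind) and the BCL6-like letters TTCNNNGAA in capitals. The windows lie at chr3:37232637-37232886 (minus strand) for Il21, at chr7:142969265-142969514 (minus strand) for Ascl2, at chr9:51213440-51213689 (plus strand) for Pou2af1, at chr2:33215711-33215960 (plus strand) for Angptl2, and at chr16:23981284-23981533 (minus strand) for the inner of 2 Bcl6 starts. The bases just after the start were found in a GENCODE M21 transcript for Il21 and Ascl2, but not for Pou2af1, Angptl2 or the inner Bcl6 start, so the RefSeq start of those 3 was not matched by that annotation.
Il21: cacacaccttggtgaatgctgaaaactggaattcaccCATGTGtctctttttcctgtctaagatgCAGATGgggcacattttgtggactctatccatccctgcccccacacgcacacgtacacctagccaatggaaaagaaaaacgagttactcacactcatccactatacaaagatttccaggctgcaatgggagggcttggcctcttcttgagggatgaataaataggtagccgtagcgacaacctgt
Ascl2: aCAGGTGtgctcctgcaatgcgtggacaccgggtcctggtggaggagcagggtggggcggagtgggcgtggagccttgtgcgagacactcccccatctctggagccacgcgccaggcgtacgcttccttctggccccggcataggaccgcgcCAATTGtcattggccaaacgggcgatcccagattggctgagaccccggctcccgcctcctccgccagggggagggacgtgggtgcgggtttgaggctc
Pou2af1: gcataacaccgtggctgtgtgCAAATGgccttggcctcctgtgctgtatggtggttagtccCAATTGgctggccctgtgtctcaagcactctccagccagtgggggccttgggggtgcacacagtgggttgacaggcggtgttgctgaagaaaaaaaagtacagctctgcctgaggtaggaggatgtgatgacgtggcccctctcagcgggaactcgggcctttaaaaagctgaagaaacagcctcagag
Angptl2: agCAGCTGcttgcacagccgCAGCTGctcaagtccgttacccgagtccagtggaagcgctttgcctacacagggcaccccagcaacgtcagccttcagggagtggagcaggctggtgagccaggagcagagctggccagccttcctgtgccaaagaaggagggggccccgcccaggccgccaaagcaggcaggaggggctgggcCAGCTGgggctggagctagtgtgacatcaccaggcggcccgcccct
Bcl6: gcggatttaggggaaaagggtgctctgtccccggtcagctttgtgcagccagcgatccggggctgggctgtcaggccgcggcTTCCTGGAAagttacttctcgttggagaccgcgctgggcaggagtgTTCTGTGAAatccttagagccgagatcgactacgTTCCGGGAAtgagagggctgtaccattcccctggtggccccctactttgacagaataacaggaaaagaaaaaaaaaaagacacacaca
Over the 11 windows of the 6 genes, both strands searched, CANNTG was found in 9 windows, and 66.2% of all 32851 windows in the table held it. The E-box CAGCTG, one form of CANNTG, was found 3 times in the Angptl2 window and in no other of the 11, against 13.0% of all windows. TTCNNNGAA was found in both Bcl6 windows, once in the outer and 3 times in the inner one, and in 7.02% of all windows. The octamer ATGCAAAT, bound by the Oct factors that the Pou2af1 product coactivates, was found in 0 of the 11 windows and in 1.6% of all. These are matches of letters only.

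Il21, which encodes the cytokine that Tfh cells give to B cells, was a gene of FoxP3- cells. Il21 (minus strand, chr3:37222759-37232636, with its promoter window printed above) had 28.2 and 18.9 CPM in WT non-Tregs and 23.3 and 35.8 CPM in KO non-Tregs. Il21 had 1.92 and 0.354 CPM in WT Tregs, 0.458 and 0.393 CPM in KO Tregs, and 0.808 and 0.875 CPM in KO FoxP3+CD25- cells. All 4 non-Treg libraries lay above all 6 FoxP3+ libraries, and both KO Treg libraries held 3 reads each. In KO mice Il21 fell in Tregs against non-Tregs (log2 fold change -6.09, SE 0.55, FDR = 0.000123, edgeR quasi-likelihood test with Benjamini-Hochberg adjustment over all genes). From pooled counts of 413 and 6, the non-Treg level was 71.6 times the Treg level, with a 95% counting interval of 32.6 to 196.0. The antisense gene Gm12534 shares 469 exon bases (8.9% of the Il21 exons) and had 9 to 28 counts in the non-Treg libraries and 0 in the 6 others. Since the strand setting of the counting is not given, reads from this stretch cannot be told apart.

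Ascl2 and Pou2af1 followed the same layout. Ascl2 (chr7:142966829-142969264, minus strand) was the lowest member, with 16 and 16 reads in WT non-Tregs (1.33 and 1.65 CPM), 7 and 17 reads in KO non-Tregs (1.16 and 2.24 CPM), and 4 and 3 reads in WT Tregs (0.512 and 0.354 CPM). KO Tregs and KO FoxP3+CD25- cells had 1 read of Ascl2 in each library (0.109 to 0.162 CPM). In KO mice Ascl2 was lower in Tregs than in non-Tregs (log2 fold change -3.50, SE 0.67; FDR = 0.00594, edgeR), a ratio from pooled counts of 12.5 with a counting interval of 3.1 to 109.0. Pou2af1 (chr9:51213708-51240080, plus strand), known best as a coactivator of octamer-binding factors in B cells, had 18.8 and 16.6 CPM in WT non-Tregs and 18.2 and 24.8 CPM in KO non-Tregs. Pou2af1 had 3.84 and 4.37 CPM in WT Tregs, 5.04 and 3.80 CPM in KO Tregs and 4.36 and 4.92 CPM in KO FoxP3+CD25- cells. Its 4 non-Treg libraries were all above its 6 FoxP3+ libraries. Pou2af1 fell in KO Tregs against KO non-Tregs (log2 fold change -2.30, SE 0.25, FDR = 0.000403, edgeR), and it and Il21 kept that call under all 14 alternatives. Summed CPM of 13 B-cell genes, most of it Ighm, was higher in Tregs (414 to 676) than in non-Tregs (251 to 348). Of the 6 that passed the filter, Cd74 and Cd79b rose and Cd22 fell in KO Tregs against KO non-Tregs. Cd22, singled out after its values were seen, was at 4.45 to 5.95 CPM in KO Tregs, 17.4 to 20.5 CPM in KO non-Tregs and 1.13 to 1.75 CPM in KO FoxP3+CD25- cells. The part of B-cell RNA in Pou2af1 was not tested.

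Sostdc1, which encodes a secreted antagonist of BMP and Wnt signals, varied most between mice. Sostdc1 (chr12:36314139-36318452, plus strand) had 13.7 and 6.50 CPM in WT non-Tregs, 3.14 and 23.8 CPM in KO non-Tregs, and 6.91 and 0.591 CPM in WT Tregs. It had 0 and 1.18 CPM in KO Tregs and 0.808 and 1.75 CPM in KO FoxP3+CD25- cells. In KO mice the Treg libraries were below the non-Treg libraries, with a log2 fold change of -4.44 (SE 1.30) that did not pass (FDR = 0.078, edgeR). It passed under 4 of 14 alternatives, among them the mouse as a replicate block (-4.45, SE 0.59, FDR = 0.000308, edgeR). With 1 library left out it ranged from -9.84 to -2.29, with an FDR of up to 0.642 (edgeR).

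**Figure D1:**
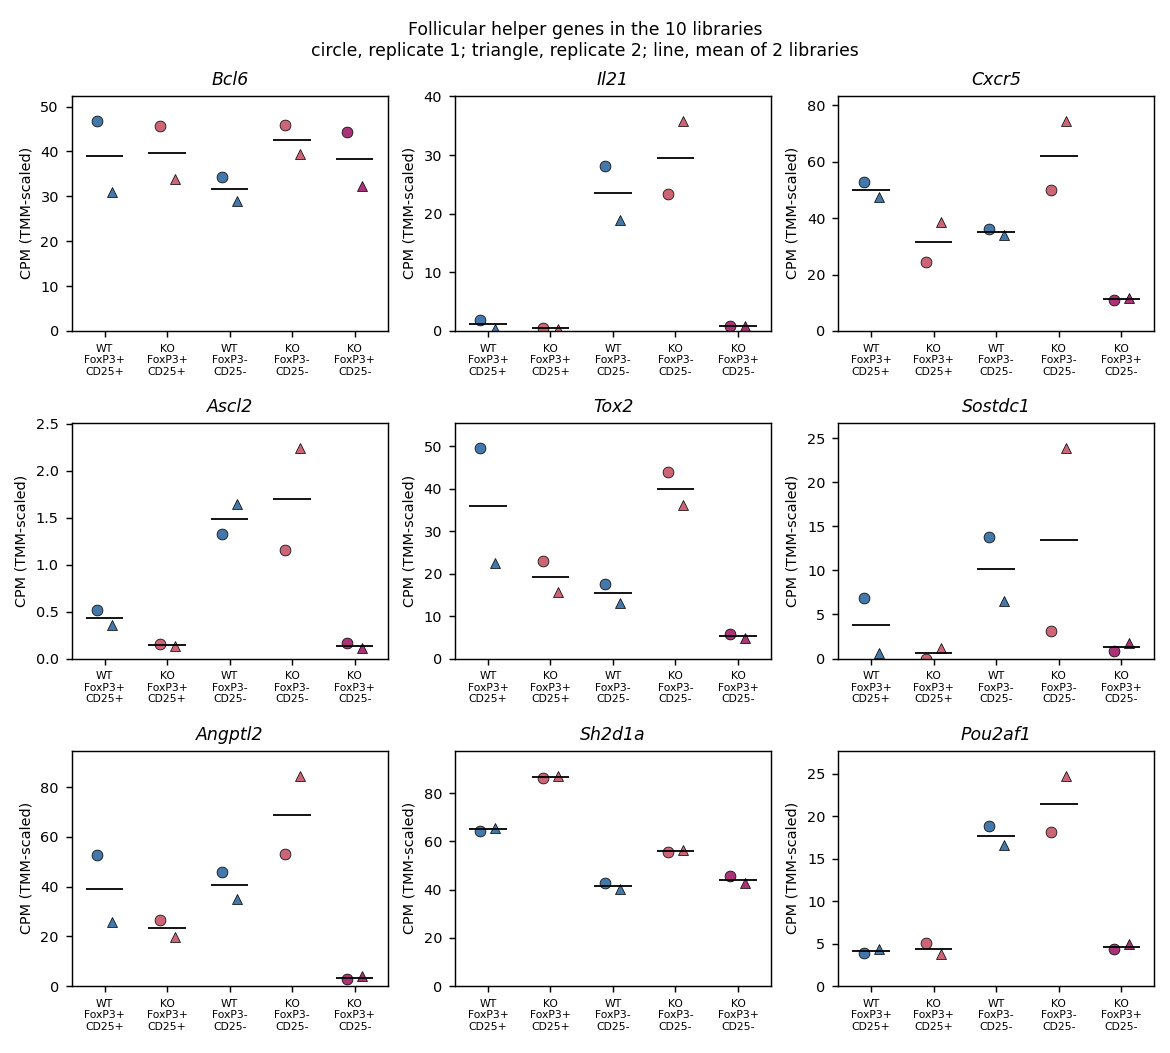
Level of each of the 9 genes in the 10 libraries, in CPM scaled by TMM factors on a linear axis from 0; circles are replicate 1, triangles replicate 2 and lines the mean of the 2 libraries. Il21, Ascl2 and Pou2af1 are high in the FoxP3-CD25- groups, with Il21 at 18.9 to 35.8 CPM there, while Bcl6 lies at 29.0 to 46.8 CPM in all groups.

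Cxcr5, the follicle-homing receptor, was shared by Tregs and non-Tregs. Cxcr5 (chr9:44511787-44561877, minus strand) had 52.7 and 47.4 CPM in WT Tregs, 24.6 and 38.7 CPM in KO Tregs, 36.3 and 34.2 CPM in WT non-Tregs and 49.8 and 74.4 CPM in KO non-Tregs. It had 11.2 and 11.6 CPM in KO FoxP3+CD25- cells, the lowest of the 5 groups. In KO mice Cxcr5 fell in Tregs against non-Tregs (log2 fold change -0.97, SE 0.22, FDR = 0.0252, edgeR). That call was lost without KO Treg replicate 1 (log2 fold change -0.69, FDR = 0.183, edgeR) or KO non-Treg replicate 2 (-0.65, FDR = 0.244), and narrowly without both libraries of WT replicate 1 (-0.97, FDR = 0.0513). Cxcr5 shares 110 exon bases (3.3% of its exons) with Bcl9l on the other strand, which had 163 to 289 CPM.

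Tox2 and Angptl2 lay between these patterns. Tox2 (chr2:163203125-163324170, plus strand) had 49.5 and 22.4 CPM in WT Tregs, 22.9 and 15.7 CPM in KO Tregs, 17.6 and 13.1 CPM in WT non-Tregs and 43.8 and 36.1 CPM in KO non-Tregs. Its lowest values were 5.82 and 4.92 CPM in KO FoxP3+CD25- cells. The log2 fold change of KO Tregs against KO non-Tregs was -1.05 (SE 0.33) and did not pass (FDR = 0.106, edgeR). With the mouse as a replicate block Tox2 did pass (-1.06, SE 0.17, FDR = 0.00185, edgeR), and likewise without WT replicate 1 (-1.05, FDR = 0.018). Angptl2 (chr2:33216069-33247717, plus strand), a secreted angiopoietin-like protein whose promoter window holds the 3 CAGCTG E-boxes, had 52.8 and 25.6 CPM in WT Tregs, 26.7 and 19.8 CPM in KO Tregs, 46.1 and 35.2 CPM in WT non-Tregs and 53.1 and 84.6 CPM in KO non-Tregs. In KO FoxP3+CD25- cells Angptl2 had 2.91 and 3.94 CPM, below every other library. Angptl2 fell in KO Tregs against KO non-Tregs (log2 fold change -1.58, SE 0.33, FDR = 0.0164, edgeR). The gene lies within the span of Ralgps1 on the other strand but shares 0 exon bases with it.

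Bcl6, the factor that defines the programme, hardly differed among the sorts. Bcl6 (chr16:23965052-23988852, minus strand) had 46.8 and 31.1 CPM in WT Tregs, 45.6 and 33.8 CPM in KO Tregs, 34.3 and 29.0 CPM in WT non-Tregs, 45.8 and 39.4 CPM in KO non-Tregs and 44.3 and 32.4 CPM in KO FoxP3+CD25- cells. Each group overlapped at least 1 other, but the KO non-Treg libraries lay above the WT non-Treg libraries (log2 fold change 0.42, not tested). Replicate 1 was the higher in all 5 groups. The log2 fold change of KO Tregs against KO non-Tregs was -0.10 (SE 0.23, FDR = 0.917, edgeR).

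Sh2d1a was the one member that was higher in Tregs in both genotypes. Sh2d1a (chrX:42502453-42529330, plus strand) had 64.4 and 65.4 CPM in WT Tregs, 86.1 and 87.1 CPM in KO Tregs, 42.8 and 40.1 CPM in WT non-Tregs, 55.7 and 56.5 CPM in KO non-Tregs and 45.7 and 42.6 CPM in KO FoxP3+CD25- cells. Replicates were close, and the 2 KO Treg libraries were above all others. In KO mice Sh2d1a rose in Tregs against non-Tregs (log2 fold change 0.63, SE 0.10, FDR = 0.00489, edgeR). Tenm1 on the other strand shares 1465 exon bases (26.6% of the Sh2d1a exons) but had only 0.328 to 1.70 CPM.

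Per kilobase of annotated exon, Cxcr5 was the highest member in WT Tregs (15.0 ± 1.14 CPM per kilobase, SD, n = 2), WT non-Tregs (10.6 ± 0.450) and KO non-Tregs (18.6 ± 5.23). Sh2d1a was the highest in KO Tregs (15.7 ± 0.138) and in KO FoxP3+CD25- cells (8.02 ± 0.409), where Bcl6 came next (5.72 ± 1.26) and then Cxcr5 (3.41 ± 0.0942). The library ranges of Sh2d1a and Bcl6 in those cells did not overlap. Ascl2 was last or next to last in every group, at 0.0835 to 1.05 CPM per kilobase.

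The loss of SATB1 within Tregs was asked by comparing KO with WT FoxP3+CD25+ cells, libraries that the choice of members did not use. No member passed there at FDR 0.05 by edgeR or by DESeq2, and 1 gene of 13796 did by edgeR (0.00725%). Among the members 4 had an unadjusted p under 0.05 by edgeR, as did 4.29% of all genes. Sh2d1a was higher in KO Tregs (log2 fold change 0.42, SE 0.10, unadjusted p = 0.00213, edgeR). Cxcr5 (-0.66, SE 0.22), Tox2 (-0.90, SE 0.33) and Angptl2 (-0.76, SE 0.33) were lower, with unadjusted p of 0.0136, 0.0203 and 0.0451 by edgeR, and an FDR that rounds to 1 for all 4. The KO and WT libraries were apart for Sh2d1a and Cxcr5 and overlapped for Tox2 and Angptl2. With 2 against 2 libraries the smallest exact permutation p is 0.333, so lying apart is a description only. The share of all genes whose libraries lay apart is not given. Il21 (-1.36, SE 0.97), Ascl2 (-1.51, SE 0.90) and Sostdc1 (-2.51, SE 1.61) had wide errors from few reads, and without WT Treg replicate 1 Il21 was at 0.25 and Sostdc1 at 0.10. Without that library Tox2 was at -0.23 and Angptl2 at -0.15. Bcl6 (0.03, SE 0.23) and Pou2af1 (0.09, SE 0.31) were near 0.

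Between Tregs and non-Tregs of KO mice, 6 of the 9 members passed at FDR 0.05, 5 lower and 1 higher in Tregs, where 6.34% of all genes passed (2.81% lower, 3.52% higher). Il21, Ascl2, Pou2af1, Angptl2 and Cxcr5 were the 5 and Sh2d1a the 1. The same 5 were also lower in the contrast used to pick members, which likewise set FoxP3+ against FoxP3- cells. Their count here is therefore not independent of that choice, and the share of all genes is no fair measure for it. The median log2 fold change of the members was -1.58, and that of all genes -0.00. With the mouse as a replicate block 8 of 9 passed, Tox2 and Sostdc1 being added, where that fit called 1649 of 13796 genes (12%). The count was 3 when KO Treg replicate 1, KO Treg replicate 2 or KO non-Treg replicate 2 was left out, and 6 without KO non-Treg replicate 1. Angptl2 and Ascl2 lost their call without any of the first 3 of these libraries (FDR up to 0.155 and 0.128, edgeR). Sh2d1a lost it narrowly without KO Treg replicate 2 (FDR = 0.0507, edgeR) or KO non-Treg replicate 1 (FDR = 0.0521).

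**Figure D2:**
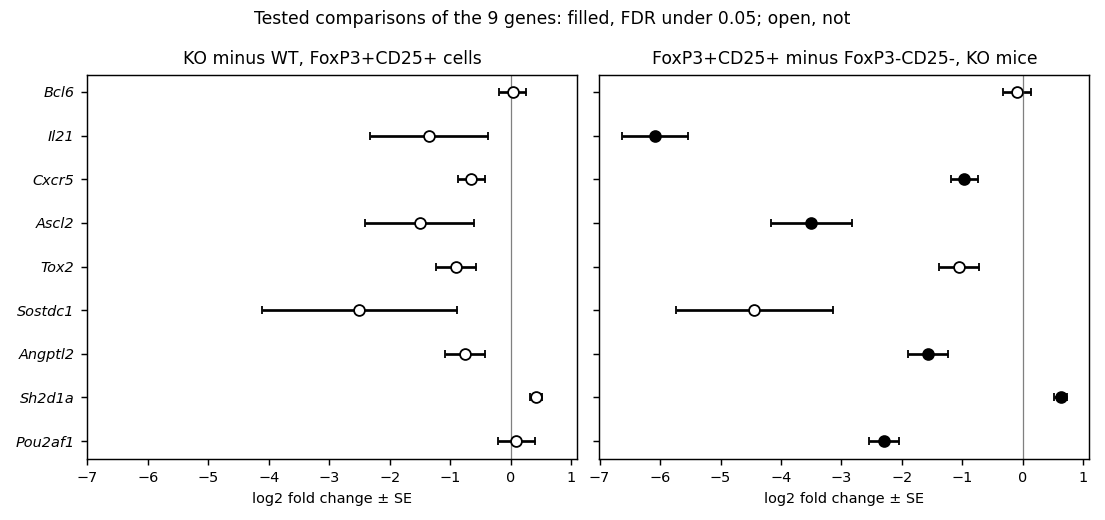
Log2 fold change with its standard error for the 9 genes, KO minus WT Tregs on the left and KO Tregs minus KO non-Tregs on the right; filled points have FDR under 0.05 (edgeR). On the left no point is filled; on the right Il21 lies at -6.09, Bcl6 at -0.10 and Sh2d1a at 0.63.

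The comparisons that follow share libraries with the contrast used to pick members, so members are described without a test. In WT mice, Tregs against non-Tregs, Il21 (log2 fold change -4.40, SE 0.45), Pou2af1 (-2.11, SE 0.24), Ascl2 (-1.74, SE 0.49) and Sostdc1 (-1.49, SE 0.90) were lower in Tregs. Tox2 (1.21, SE 0.33), Sh2d1a (0.64, SE 0.10), Cxcr5 (0.51, SE 0.22) and Bcl6 (0.29, SE 0.23) were higher, and Angptl2 (-0.06, SE 0.31) was level. Tox2 was at 0.54 without WT Treg replicate 1, and without both libraries of WT replicate 1 Il21 was at -5.67 and Sostdc1 at -3.42.

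Within single mice, the Treg minus non-Treg difference of Cxcr5 in log2 CPM was 0.54 and 0.47 in the 2 WT mice and -1.01 and -0.94 in the 2 KO mice. Tox2 gave 1.48 and 0.77 in WT mice and -0.93 and -1.19 in KO mice. Both genes thus stood on opposite sides of 0 in WT and KO mice. Sh2d1a was alike in all 4 mice, at 0.59 and 0.70 in WT and 0.62 and 0.62 in KO. Il21, Pou2af1, Ascl2 and Sostdc1 were lower in Tregs of every mouse.

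**Figure D3:**
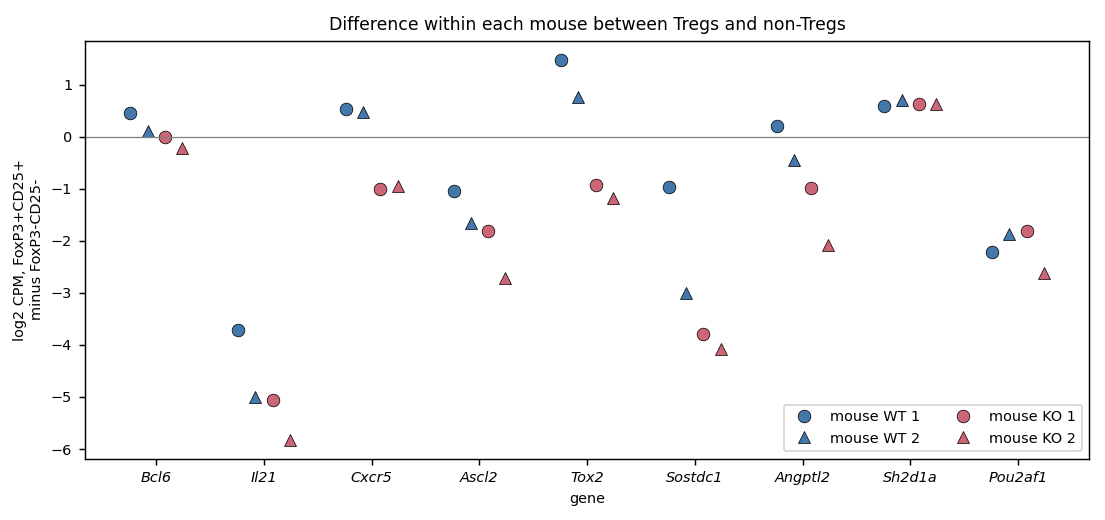
Difference in log2 CPM (prior count 2) between FoxP3+CD25+ and FoxP3-CD25- cells of the same mouse for each of the 9 genes; blue is WT, red is KO, circles replicate 1 and triangles replicate 2. Cxcr5 lies at 0.47 to 0.54 in WT and at -1.01 to -0.94 in KO mice, and Sh2d1a at 0.59 to 0.70 in all 4.

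KO non-Tregs had higher fitted levels than WT non-Tregs for all 9 members, where 49.5% of all genes were higher. The WT non-Treg libraries were themselves used in choosing some members, and pairs of members correlated at up to 0.965. The 9 directions are therefore not separate observations, and they are described without a test. The log2 fold changes were 1.37 (SE 0.33) for Tox2, 0.82 (SE 0.22) for Cxcr5, 0.76 (SE 0.31) for Angptl2 and 0.44 (SE 0.11) for Sh2d1a. The other 5 lay between 0.25 for Ascl2 and 0.45 for Sostdc1, each with an SE that left it within 2 SE of 0. Ascl2, Sostdc1 and Il21 turned to -0.35, -1.71 and -0.02 without KO non-Treg replicate 2, which was the higher library for all 3.

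KO FoxP3+CD25- cells had lower fitted levels than KO non-Tregs for all 9 members, where 51.1% of all genes were higher. The KO FoxP3+CD25- libraries were themselves used in choosing some members. Il21 (log2 fold change -5.11, SE 0.48), Angptl2 (-4.30, SE 0.42), Ascl2 (-3.60, SE 0.67), Sostdc1 (-3.35, SE 1.10), Tox2 (-2.90, SE 0.39), Cxcr5 (-2.45, SE 0.24) and Pou2af1 (-2.20, SE 0.25) were lower by more than 2 units, but Sostdc1 was at -1.20 (SE 1.32) without KO non-Treg replicate 2. Sh2d1a (-0.35, SE 0.11) and Bcl6 (-0.16, SE 0.23) differed little. Against KO Tregs, these cells had less Angptl2 (-2.72, SE 0.44), Tox2 (-1.85, SE 0.41), Cxcr5 (-1.48, SE 0.25) and Sh2d1a (-0.97, SE 0.11). Pou2af1 (0.09, SE 0.30) and Bcl6 (-0.06, SE 0.23) were level with KO Tregs, while Il21, Ascl2 and Sostdc1 had too few reads in both to rank. In the contrast used for the choice, against WT non-Tregs, the fold changes ran from -4.78 for Il21 and -3.53 for Angptl2 to 0.09 for Sh2d1a and 0.27 for Bcl6.

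Of 48 further genes of the Tfh programme, all of which passed the filter, 17 were receptors and SAP partners, 16 transcription factors and Il4, and 15 opponents of the programme. Between KO and WT Tregs none passed at FDR 0.05 by edgeR or DESeq2, and 5 had an unadjusted p under 0.05 by edgeR, where 4.29% of all genes did. With the mouse as a replicate block 1 passed, as did 57 of 13796 genes (0.413%). That block takes out the spread between mice, so its calls between KO and WT groups, here and below, are not measured against that spread.

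Between KO Tregs and KO non-Tregs, 7 of the 48 rose and 9 fell (16 in all), where 3.52% and 2.81% of all genes did. With the mouse as a replicate block 25 passed, where 12% of all genes did. The median log2 fold change of the 48 was -0.01. Slamf1 (1.26, SE 0.11) and P2rx7 (1.05, SE 0.10), receptors of the SLAM and purinergic families, rose, and the SLAM receptor Slamf6 fell (-1.18, SE 0.12). Among factors 2 fell, Tcf7 (-1.22, SE 0.12) and Lef1 (-0.89, SE 0.15), which act upstream of Bcl6. Lef1 narrowly lost its call without KO Treg replicate 2 (FDR = 0.0531, edgeR). Among opponents, the IL-2 receptor chains Il2ra (6.31, SE 0.30) and Il2rb (1.83, SE 0.22) rose and Il7r fell (-1.23, SE 0.18). Il2ra encodes CD25, by which the cells were sorted.

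In WT mice, Tregs against non-Tregs, 16 of the 48 rose and 10 fell, where 7.15% and 3.75% of all genes did (10.9% together), with a median of 0.15 against -0.02 for all genes. P2rx7 (2.09, SE 0.10), Slamf1 (1.62, SE 0.11) and the ectoenzyme Nt5e (1.85, SE 0.21) led the receptors, and Pou2f2 (1.71, SE 0.24), an octamer-binding partner of the Pou2af1 product, rose while Pou2af1 itself was lower. Lef1 (-1.65, SE 0.15) and Tcf7 (-1.20, SE 0.12) fell, as did Il7r (-1.53, SE 0.18), with Il2ra (8.06, SE 0.33) and Il2rb (2.83, SE 0.23) higher. The difference between the KO effects in Tregs and in non-Tregs passed for 0 of 13796 genes by edgeR, and 685 had an unadjusted p under 0.05.

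In KO against WT non-Tregs the replicate block again takes out the spread between mice, so its calls are not measured against that spread. By the main fit 2 of the 48 passed there, both higher in KO, where 0.145% of all genes passed (0.116% higher, 0.029% lower). They were Id3 (1.19, SE 0.18, FDR = 0.0326, edgeR), an inhibitor of E proteins with 28.7 to 31.6 CPM in WT and 61.3 to 76.4 CPM in KO, and P2rx7 (0.66, SE 0.10, FDR = 0.0326). Neither passed when any 1 of the 4 libraries was left out, nor without WT replicate 1, while 11 passed with the mouse as a replicate block, all higher, where that fit called 393 of 13796 genes (2.85%; 1.99% higher).

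In KO FoxP3+CD25- cells against KO non-Tregs 7 of the 48 passed, all lower, where 1.35% of all genes fell and 0.319% rose (1.67% together). By DESeq2 11 passed, all lower, where 2.09% of all genes fell. The 7 were Pdcd1, which encodes PD-1 (-1.68, SE 0.19), P2rx7 (-0.98, SE 0.10), Slamf6 (-0.81, SE 0.12), Icos, Cd200, Maf (-1.63, SE 0.31) and Pou2f2 (-1.17, SE 0.24). Pdcd1 had 19.9 and 22.5 CPM in KO FoxP3+CD25- cells against 61.0 and 73.8 CPM in KO non-Tregs, Icos 57.3 to 72.1 against 141 to 162 CPM and Maf 65.8 to 88.1 against 227 to 248 CPM. Maf and Pou2f2 lost their call without any 1 of the 4 libraries, and Slamf6 without KO non-Treg replicate 2 or either KO FoxP3+CD25- library. With the mouse as a replicate block 20 passed, 16 lower and 4 higher, where that fit called 786 of 13796 genes (5.7%; 3.85% lower, 1.85% higher).

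Against KO Tregs, 8 of the 48 rose and 14 fell in KO FoxP3+CD25- cells, where 2.25% and 4.76% of all genes did (7.01% together). Il2ra (-5.28, SE 0.28), Il2rb (-2.76, SE 0.23), P2rx7 (-2.04, SE 0.10), Pou2f2 (-1.96, SE 0.25), Pdcd1 (-1.76, SE 0.19) and Slamf1 (-1.74, SE 0.12) fell. Lef1 (1.25, SE 0.15), Tcf7 (0.93, SE 0.12) and Il7r (2.83-fold) rose. Against WT non-Tregs 1 of the 48 passed, Il2ra (2.66, SE 0.34), where 0.768% of all genes did (0.355% higher, 0.413% lower). There 11 passed with the mouse as a replicate block, where 3.89% of all genes did, again with the spread between mice taken out.

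**Figure D4:**
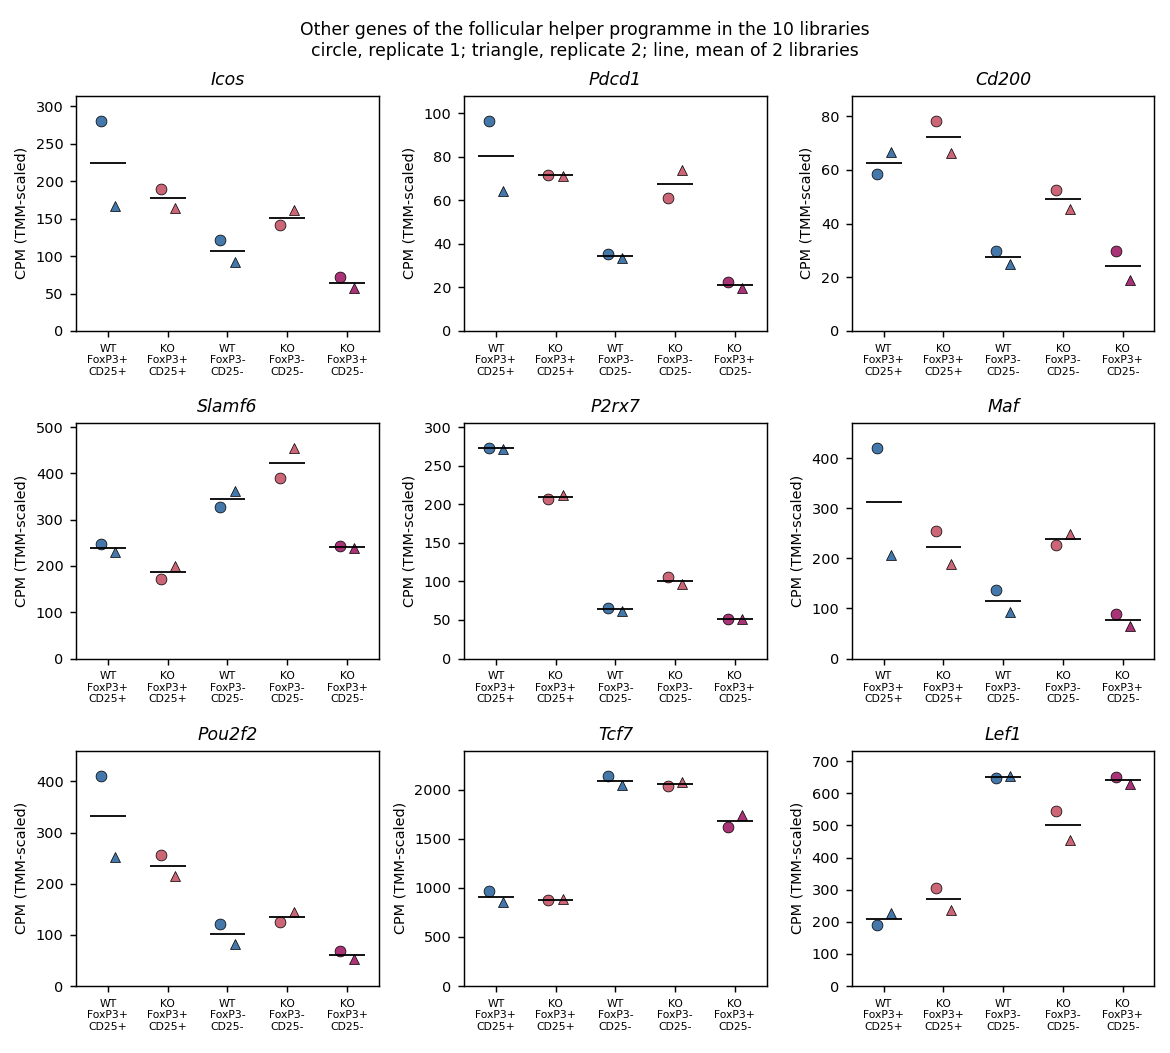
Level in CPM of 9 other genes of the Tfh programme in the 10 libraries; circles are replicate 1, triangles replicate 2 and lines the mean of the 2 libraries. Pdcd1, Icos, P2rx7 and Maf are lowest in KO FoxP3+CD25- cells, with Pdcd1 at 19.9 and 22.5 CPM, and Lef1 and Tcf7 are lowest in the Treg libraries.

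Genes of memory CD4+ T cells moved with the members. The summed level of 16 such genes was 510 and 516 CPM in KO FoxP3+CD25- cells, 831 and 1291 CPM in WT non-Tregs, 1698 and 2166 CPM in KO non-Tregs, and 883 to 1353 CPM in the 4 Treg libraries. Itgb1 alone made up a large part of the sum in KO non-Tregs, at 745 to 1130 CPM, and had 123 to 148 CPM in KO FoxP3+CD25- cells. All 16 had counts in every library but 1 of KO FoxP3+CD25- cells, where 15 did. In KO FoxP3+CD25- cells against KO non-Tregs 10 of the 16 passed, all lower, among them Cxcr3, Ifng, Tbx21, Itgb1 and Cd44, where 1.35% of all genes fell, and by median log2 fold change the list was at -2.82. Between KO Tregs and KO non-Tregs 5 of 16 passed, all lower, where 2.81% of all genes fell. In KO against WT non-Tregs 15 of the 16 were higher, where 49.5% of all genes were. None passed there by edgeR (0 of 16), and 11 had an unadjusted p under 0.05, as did 8.02% of all genes. The part of memory cells in the members' levels was not tested.

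Over the 10 libraries, which form 5 groups of 2 from 4 mice, the mean standardized profile of the 9 genes was most like those of Cxcr3 (Pearson r = 0.986), Itgb1 (0.983), Myo1f (0.97), Tbx21 (0.97) and Egln3 (0.968), of which Cxcr3, Itgb1 and Tbx21 are in the memory list. By gene, r with the logarithm of the memory sum was 0.925 for Angptl2, 0.899 for Tox2 and 0.895 for Cxcr5, but 0.323 for Bcl6 and 0.239 for Sh2d1a. The 36 pairs of members had r from -0.522 (Il21 and Sh2d1a) to 0.965 (Il21 and Pou2af1), with a median of 0.454 and 8 below 0. Bcl6 was most like Rufy3 (0.971) and Fmnl1 (0.947), and Cxcr5 like Farp1 (0.965) and Gng2 (0.951). These are descriptions of shared group levels, with no test. Some members were picked by their difference between KO FoxP3+CD25- cells and WT non-Tregs, so that choice in part shapes the mean profile and its likeness to other genes.

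**Figure D5:**
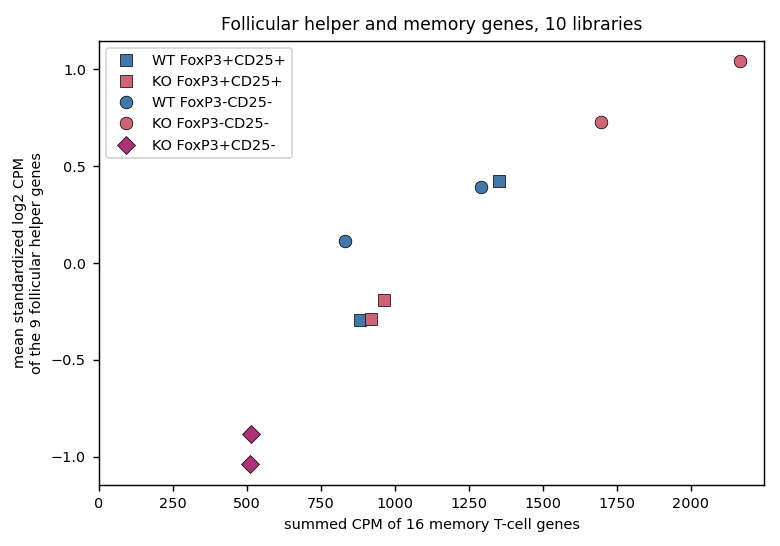
Mean standardized log2 CPM of the 9 Tfh genes (vertical) against the summed CPM of 16 memory T-cell genes (horizontal, linear from 0), 1 point for each of the 10 libraries; squares are Tregs, circles non-Tregs and diamonds KO FoxP3+CD25- cells. The KO FoxP3+CD25- libraries lie lowest on both axes, at 510 and 516 CPM, and the KO non-Treg libraries highest, at 1698 and 2166 CPM. Some of the 9 genes were picked by their difference between KO FoxP3+CD25- cells and WT non-Tregs. The low vertical position of KO FoxP3+CD25- libraries was therefore in part set by that choice.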

How the data were processed

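RNA-seq was analysed for 10 libraries of sorted spleen CD4+ T cells, 2 in each of 5 groups. The authors used HISAT2 (version 2.1.0) for alignment to the mm10 build and HTSeq for counting, version 0.11.1 in the submitters' processing notes and an earlier release in the methods. The deposited values are raw counts per gene symbol, not normalized; the strand setting is not given in the sources used here. HTSeq's tallies of unassigned reads were left out, and 26.0% to 28.5% of all reads lay on genes.

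Counts were fitted with edgeR (version 4.0.16) in R (version 4.3.3): filterByExpr with a minimum count of 10, TMM, 1 model with 5 group means, and two-sided quasi-likelihood F-tests with Benjamini-Hochberg adjustment over 13796 genes at FDR 0.05, with a common biological coefficient of variation of 0.147 and 5 residual degrees of freedom. DESeq2 (version 1.42.0) and the other alternatives are given in the closing section. The smallest exact permutation p for 2 against 2 libraries is 0.333, and no such test was run. The p-values rest on a spread estimated over all 5 groups of 2 libraries, not on the 2 mice of a group alone. KO Tregs and KO non-Tregs were taken to come from the same 2 mice, a pairing that only the replicate block fits. That block takes out the spread between mice, so its p-values between KO and WT groups do not measure that spread. SE is the fold change divided by the square root of F. SD and means are over 2 libraries. The pooled-count intervals are exact (Clopper-Pearson) at 95%. The members and all gene lists were chosen with earlier results of these data known. Members were tested only in comparisons that share no library with the contrast used to pick them. These tests are still not independent of the choice, since the KO libraries were taken to come from the same 2 mice and the fits, the replicate block included, estimate their spread over all 10 libraries. KO Tregs against KO non-Tregs also set FoxP3+ against FoxP3- cells, as the contrast used to pick members did. From the other Tfh lists, every gene passing was named where at most 6 passed in a comparison, otherwise the 3 of lowest p in each list; Icos and Cd200 complete a count of 7 and were named with it after their values were seen. A marker of the B-cell list is not reported here. Other named genes are Satb1, Foxp3, defining or largest cell markers, overlapping genes, sex-linked genes, and the genes of most similar profile (5 for the mean of the members, 2 each for Bcl6 and Cxcr5).

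Same-numbered libraries of a genotype were read as 1 mouse from their titles, and their deviations from the group means correlated at 0.303 in WT and 0.421 to 0.445 in KO. Positions, exon lengths and overlaps are from GENCODE M21 (GRCm38), and promoters from RefSeq (GRCm38.p6). On simulated counts for KO Tregs against KO non-Tregs (13522 genes, 200 changed), the test called 163 genes, 4 of them unchanged, and recovered 64% of 2-fold and 95% of 4-fold changes. The simulated libraries were drawn independently from a trended dispersion, without the correlation between libraries of a mouse. These rates may therefore not hold for the real counts.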

Additional observations from a re-analysis of the deposited data

Results flagged for a closer look

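The difference between Tregs and non-Tregs within a mouse was positive in both WT mice and negative in both KO mice for 3 of the 9 genes. Only the members were searched for this pattern. The share of all genes that show it is not given, so the count is a description only. In log2 CPM, Cxcr5 gave 0.54 and 0.47 in WT mice and -1.01 and -0.94 in KO mice, and Tox2 gave 1.48 and 0.77 in WT mice and -0.93 and -1.19 in KO mice. For Bcl6 the values were small, 0.45 and 0.10 in WT mice and -0.0061 and -0.22 in KO mice. The difference between the KO effects in Tregs and in non-Tregs passed edgeR's test for 0 of 13796 genes (685 genes had an unadjusted p under 0.05). That count over all genes is not read as a test of the 3 genes. No p is given for the 3 genes, since the WT non-Treg libraries were used in choosing members. No group had enough libraries for a check of single libraries within it.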

How the results depend on the processing

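Of the counts reported, that of members called between KO and WT Tregs stayed at 0 under all 14 alternatives, and that between KO Tregs and KO non-Tregs ranged from 3 to 6 with each library left out in turn and from 5 to 8 otherwise. For the 48 other Tfh genes, the count between KO and WT Tregs was 1 with the replicate block and 0 otherwise; between KO Tregs and KO non-Tregs (16) it was 25 with the block and 10 to 12 with a library left out. In KO against WT non-Tregs (2) it was 6 with no filter, by DESeq2 and by the likelihood ratio test, 11 with the block, 5 with only the 4 libraries compared, 0 without WT replicate 1, and 0 to 0 with a library left out. In KO FoxP3+CD25- cells against KO non-Tregs (7) it was 12 with no filter, 11 by DESeq2 and without WT replicate 1, 13 by the likelihood ratio test, 20 with the block, and 2 to 5 with a library left out. Against KO Tregs (22) it was 14 to 19 with a library left out, and against WT non-Tregs (1) it was 3 with no filter, by DESeq2 and by the likelihood ratio test, 11 with the block and 2 with only the 4 libraries compared. In WT Tregs against WT non-Tregs (26) it ranged from 19 to 32. The log2 fold change of KO against WT Tregs changed sign for Bcl6 (-0.25 to 0.35 over single libraries left out; -0.20 without KO Treg replicate 1), for Il21 (0.25; range -2.15 to 0.25) and Sostdc1 (0.10; range -7.91 to 0.10) without WT Treg replicate 1 or all of WT replicate 1, and for Pou2af1 (-0.11; range -0.11 to 0.29) without KO Treg replicate 1. In KO Tregs against KO non-Tregs Bcl6 was at 0.10 and 0.0079 without KO Treg replicate 2 and KO non-Treg replicate 1 (range -0.33 to 0.10). Ascl2 lost its call there by DESeq2 (FDR 0.115), and Cxcr5 with only the 4 libraries compared (FDR 0.0692, edgeR). The cause was not tested. With 3 to 15 reads of Il21 and 1 to 4 of Ascl2 in the FoxP3+ libraries, neither gene can be ranked among FoxP3+ groups at this depth.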
